A study of Mus musculus with 13 samples.

Results

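Neurons and microglia exchange inhibitory signals through pairs of surface proteins, and 7 genes of these checkpoint pairs were followed in mouse brain RNA. They were chosen by name, as the ligands Cx3cl1, Cd200, Cd47 and Cd24a and the receptors Cd200r1, Sirpa and Cd22, among the 21056 genes listed in all 4 deposited group tables. All 7 were found, and all 7 were among the 16940 genes that passed a filter on low counts and were tested. Cx3cr1, the receptor of Cx3cl1, and Siglecg, a receptor of Cd24a, are given beside their ligands.

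The study profiled 13 brain libraries from male mice to ask how a transient stroke acts in brains that keep their microglia and in brains that lost them. As the labels have it, mice of every group carried a tamoxifen-inducible Cre recombinase on 1 allele of Cx3cr1 and an inducible diphtheria toxin receptor at the Rosa locus (CX3CR1creER/+ and R26iDTR/+), and every group received 2 doses of tamoxifen at an age of 7 to 8 weeks. The Cx3cr1 gene drives Cre in microglia and also in other mononuclear phagocytes, and because Cre occupies a copy of Cx3cr1 in all groups, no group has both copies of that gene untouched. The groups were tMCAO_MG_DE (n = 2), with diphtheria toxin and occlusion of the middle cerebral artery, tMCAO_MG_CON (n = 4), with saline and occlusion, sham_MG_DE (n = 4), with toxin and sham surgery, and sham_MG_CON (n = 3), with saline and sham surgery. The toxin was given at 50 ng per g body weight on 3 days, 30 days after tamoxifen, and the occlusion lasted 60 min. The labels give an age of 6 to 8 weeks for the operated mice, which stands beside the tamoxifen age as written. Which brain region was taken, and when, is not given in the sources used here. The labels give each library its own identifier but do not state separate animals, so p-values measure the spread between these libraries.

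Fractalkine, the product of Cx3cl1, is made mainly by neurons and binds CX3CR1 on microglia, either as a membrane protein or after the proteases ADAM10, ADAM17 or cathepsin S release it. CD200 on neurons binds CD200R1 on myeloid cells, and CD47, which most cells carry, binds SIRPα, which restrains phagocytosis through the phosphatases SHP-1 and SHP-2. SIRPα is carried by myeloid cells and by neurons. CD22 and Siglec-G are receptors for sialic acid with inhibitory tails, best known from B cells, and CD24 is a ligand of Siglec-G.

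The genes were located in the GENCODE annotation of GRCm38, the build also called mm10. Cx3cl1 lies at chr8:94772009-94782427 on the plus strand. Cd200 (chr16:45382135-45409053, minus), its receptor gene Cd200r1 (chr16:44765736-44794978, plus) and Cd47 (chr16:49800533-49915010, plus) share chromosome 16. Sirpa lies at chr2:129592835-129632228 (plus), Cd24a at chr10:43578284-43584265 (plus) and Cd22 at chr7:30865402-30880342 (minus). No annotated gene overlaps the first 6 of these, whereas Cd22 is overlapped on the opposite strand by Gm29439.

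The promoters of the 3 ligand genes that passed a test below are shown, as the RefSeq windows of GRCm38.p6 that run from 250 bases before to 50 bases after a transcript start. RefSeq windows were matched for 4 of the 7 genes, including Cd22, and Sirpa, Cd24a and Cd200r1 were not among them. Capitals mark matches on either strand to 5 motifs, namely the GC box (GGGCGG), the TATA box (TATAAA), the NRF1 core (TGCGCA), the ETS core (CCGGAA) and the CRE core (TGACG). No capital base belongs to more than 1 match.
Cx3cl1 (chr8:94771930-94772229, plus): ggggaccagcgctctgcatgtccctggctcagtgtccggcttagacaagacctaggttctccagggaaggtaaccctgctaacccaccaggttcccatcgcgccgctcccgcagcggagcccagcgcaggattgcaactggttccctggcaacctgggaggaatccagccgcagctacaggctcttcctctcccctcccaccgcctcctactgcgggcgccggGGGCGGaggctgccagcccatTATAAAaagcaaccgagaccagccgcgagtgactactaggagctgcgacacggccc
Cd200 (chr16:45409004-45409303, minus): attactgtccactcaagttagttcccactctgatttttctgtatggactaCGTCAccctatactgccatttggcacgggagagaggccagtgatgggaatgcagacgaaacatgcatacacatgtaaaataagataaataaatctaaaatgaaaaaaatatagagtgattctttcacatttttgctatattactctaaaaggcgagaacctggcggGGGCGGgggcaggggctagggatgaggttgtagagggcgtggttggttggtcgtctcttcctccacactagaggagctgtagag
Cd47 (chr16:49855404-49855703, plus, the first of 2 windows listed): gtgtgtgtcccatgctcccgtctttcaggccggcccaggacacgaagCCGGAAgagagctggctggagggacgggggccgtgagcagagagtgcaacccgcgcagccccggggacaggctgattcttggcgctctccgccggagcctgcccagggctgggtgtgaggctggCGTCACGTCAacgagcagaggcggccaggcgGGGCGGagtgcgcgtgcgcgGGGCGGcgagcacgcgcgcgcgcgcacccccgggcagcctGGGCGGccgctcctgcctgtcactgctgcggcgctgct
The Cd47 window held 35 CpG and 74.0% G and C, with 3 GC boxes, 1 ETS core and 2 CRE cores on the minus strand. The Cx3cl1 window held 19 CpG, 64.7% G and C, 1 GC box and 1 TATA box, and the Cd200 window held 8 CpG, 45.0% G and C, 1 GC box and 1 CRE core on the minus strand. Over 27025 promoter windows of the same length the median was 7.0 CpG and 52.7% G and C. These were the first window listed for each gene, with 1 chromosome left out. A GC box was present in 35.9% of them, a TATA box in 14.2%, an NRF1 core in 8.06%, an ETS core in 15.2% and a CRE core in 21.0%. None of the 5 motifs was matched in the Cd22 window (chr7:30878979-30879278, minus), which says only that these letters are not in it.

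Libraries held 16239763 to 22080367 counts. The microglial receptor gene Csf1r checked the depletion, at 7.29 ± 1.72 CPM (counts scaled to the TMM-adjusted size of the library) in tMCAO_MG_DE and 87.9 ± 8.92 CPM in tMCAO_MG_CON, and at 9.96 ± 4.35 CPM in sham_MG_DE and 92.7 ± 0.718 CPM in sham_MG_CON (SD). All 10 of 10 microglia markers fell in both depletion comparisons, against 9.26% of all tested genes called lower in occluded and 4.49% in sham brains. The neuron markers Rbfox3, Snap25 and the 8 others of their list were detected in every group. On the first principal component, sham_MG_DE replicate 1 lay at -5.04, against 31.9 to 48 for the other depleted libraries and -34.6 to -20.7 for the control libraries. Replicates sham_MG_DE 3 and sham_MG_CON 2 held summed neutrophil markers of 34.9 and 33.9 CPM, against 1.14 to 14.7 CPM in the other 11. The treatment entry of tMCAO_MG_CON replicate 4 reads sham surgery, and it was grouped by its title. On the second principal component this library lay at -22.4. The other occluded libraries lay at -38.4 to -20 there, and the sham libraries at 16 to 35.1. In bulk RNA, fewer cells of a type and less RNA per cell cannot be told apart.

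Per length, Cx3cl1 was the most abundant member. In deposited FPKM, which divides counts by gene length and library size, sham_MG_CON libraries averaged 179 for Cx3cl1, 31.1 for Cd47, 28.6 for Sirpa, 10.8 for Cd200, 1.70 for Cd24a, 0.572 for Cd200r1 and 0.0144 for Cd22. The receptors Cd200r1 and Cd22 were measured on few reads, with 43 to 120 summed counts per group for Cd200r1 and 2 to 31 for Cd22. These levels are descriptions, with no test between genes.

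Cx3cl1 was lower after occlusion. Its level was 457 and 426 CPM in the 2 libraries of tMCAO_MG_DE. It was 221, 436, 525 and 228 CPM in tMCAO_MG_CON, where replicates 1 and 4 stood well below the others. It was 989, 788, 753 and 643 CPM in sham_MG_DE. It was 965, 715 and 824 CPM in sham_MG_CON. No occluded library reached the lowest sham library, and the depleted and control libraries overlapped within each surgery. The means were 441 ± 22.1 CPM in tMCAO_MG_DE, 353 ± 152 CPM in tMCAO_MG_CON, 793 ± 144 CPM in sham_MG_DE and 835 ± 126 CPM in sham_MG_CON (SD).

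With microglia present, Cx3cl1 fell after occlusion, with a log2 fold change of -1.24 ± 0.26 (SE) and an edgeR adjusted p of 0.012 for tMCAO_MG_CON against sham_MG_CON. It was the only 1 of the 7 genes called in that comparison, in which 8.44% of all tested genes were called, 5.14% as higher and 3.31% as lower. Without sham_MG_CON replicate 1 the log2 fold change was -1.13 and the edgeR adjusted p 0.054. Without tMCAO_MG_CON replicate 4, the library with the conflicting treatment entry, it was -1.08 with an edgeR adjusted p of 0.024. Beside this fall, the summed level of the 10 neuron markers was 8480 to 9350 CPM in tMCAO_MG_CON and 10300 to 10700 CPM in sham_MG_CON, and 2 of the 10, Snap25 and Syt1, fell, by 0.34 and 0.33 on the log2 scale, the call of Syt1 ending without sham_MG_CON replicate 1 or 3 (edgeR adjusted p 0.061 to 0.088). No neuron marker was at 0 in any group, and the part of neuron content in the Cx3cl1 result was not tested.

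In the depleted brains, the Cx3cl1 groups were also separate, at 426 to 457 CPM in tMCAO_MG_DE and 643 to 989 CPM in sham_MG_DE, but the log2 fold change of -0.85 ± 0.31 (SE) did not pass, with an edgeR adjusted p of 0.091. By edgeR 0 of the 7 genes were called for tMCAO_MG_DE against sham_MG_DE, where 12.4% of all tested genes were called, 6.59% higher and 5.84% lower. At an unadjusted p under 0.05 there were 2, Cx3cl1 and Cd200, and DESeq2 called 1, Cd200. Cx3cl1 passed without tMCAO_MG_CON replicate 3 (log2 fold change -0.85, edgeR adjusted p 0.048), and Cd200 without tMCAO_MG_CON replicate 1 (-0.30, edgeR adjusted p 0.037). The interaction, which asks whether depletion acted differently in occluded and sham brains, was 0.40 ± 0.39 (SE, log2) for Cx3cl1, with a 95% interval of -0.45 to 1.25. Cx3cl1 also varied within groups more than most genes of its level. Its within-group SD was 0.412 on the log2 scale, above that of 97.1% of the 443 genes within 2-fold of its mean, whose median SD was 0.108.

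Cd200 was higher in depleted than in control brains after sham surgery, and its means in the other 3 groups were 73.6 to 76.9 CPM. It stood at 77.6 and 76.2 CPM in tMCAO_MG_DE. In tMCAO_MG_CON it stood at 64.0, 75.4, 77.5 and 77.4 CPM. It stood at 88.7, 92.8, 91.9 and 105 CPM in sham_MG_DE, against 79.7, 75.3 and 68.7 CPM in sham_MG_CON. Every sham_MG_DE library lay above every library of the other 3 groups, and those 3 groups overlapped. The means were 76.9 ± 1.02 CPM in tMCAO_MG_DE, 73.6 ± 6.45 CPM in tMCAO_MG_CON, 94.5 ± 7.03 CPM in sham_MG_DE and 74.5 ± 5.53 CPM in sham_MG_CON (SD).

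In sham brains Cd200 rose with depletion by 0.34 ± 0.08 (SE, log2), with an edgeR adjusted p of 0.024. In this comparison 2 of the 7 genes were called, Cd200 as higher and Cd47 as lower, against 11.3% of all tested genes, 6.85% higher and 4.49% lower. The Cd200 call ended, with log2 fold changes of 0.29 to 0.35 and edgeR adjusted p-values of 0.053 to 0.1, when sham_MG_CON replicate 2 or 3, or sham_MG_DE replicate 2 or 4, was left out. In occluded brains the log2 difference of Cd200 between depleted and control was 0.06 ± 0.10 (SE), with a 95% interval of -0.14 to 0.27. The interaction of Cd200 was -0.28 ± 0.13 (SE, log2) with an edgeR adjusted p of 0.51, so the difference between the depletion effects did not pass. None of the 7 genes was called for the interaction by edgeR or DESeq2, 1 (Cd200) had an unadjusted p under 0.05, and edgeR called 0.0472% of all tested genes.

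Cd47 was lower in depleted brains under both surgeries. Its level was 130 and 134 CPM in tMCAO_MG_DE, against 164.2, 180.8, 161.8 and 167.5 CPM in tMCAO_MG_CON. It was 175, 131, 135 and 123 CPM in sham_MG_DE, against 184, 181 and 180 CPM in sham_MG_CON. Depleted and control libraries did not overlap within a surgery, but sham_MG_DE replicate 1 lay near the controls and well above the other 3 of its group. In FPKM the means were 23.7 ± 0.258 in tMCAO_MG_DE and 30.8 ± 1.45 in tMCAO_MG_CON, and 24.5 ± 3.68 in sham_MG_DE and 31.1 ± 0.533 in sham_MG_CON (SD), so that both depleted groups ranked below both control groups. Libraries of the same depletion state overlapped between the surgeries, and sham_MG_DE overlapped tMCAO_MG_CON through replicate 1.

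Cd47 fell with depletion in sham brains, with a log2 fold change of -0.37 ± 0.10 (SE) and an edgeR adjusted p of 0.032. It also fell in occluded brains, with a log2 fold change of -0.35 ± 0.11 (SE) and an edgeR adjusted p of 0.048. It was the only 1 of the 7 genes called for tMCAO_MG_DE against tMCAO_MG_CON, where 18.6% of all tested genes were called, 9.36% higher and 9.26% lower. The interaction of Cd47 was 0.01 ± 0.15 (SE, log2), with a 95% interval of -0.31 to 0.34.

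Both Cd47 calls were close to the threshold. In sham brains the call ended when any of the 3 sham_MG_CON libraries or sham_MG_DE replicate 2, 3 or 4 was left out (edgeR adjusted p 0.074 to 0.093), while without sham_MG_DE replicate 1 the log2 fold change was -0.49 with an edgeR adjusted p of 0.00032. In occluded brains it ended when any of the 3 sham_MG_CON or 6 occluded libraries or sham_MG_DE replicate 2 or 3 was left out (edgeR adjusted p 0.051 to 0.2), with log2 fold changes of -0.37 to -0.31. Summed neuron markers were 8270 to 8610 CPM in tMCAO_MG_DE and 8480 to 9350 CPM in tMCAO_MG_CON, and 9080 to 10600 CPM in sham_MG_DE and 10300 to 10700 CPM in sham_MG_CON. Replicate 1 of sham_MG_DE was the highest of its group for these markers too, at 10600 CPM, and it was depleted by its microglia markers, at 43.3 CPM against 289 to 333 CPM in sham_MG_CON. Of the 10 neuron markers, Nefl and Stmn2 fell with depletion under both surgeries, by 0.77 and 0.65 (log2) in occluded and by 0.61 and 0.42 in sham brains, and Rbfox3 rose by 0.54 ± 0.08 (SE, log2) in occluded brains. The Nefl and Stmn2 calls ended without tMCAO_MG_DE replicate 2 in occluded brains, that of Stmn2 also without replicate 1 (edgeR adjusted p 0.058 to 0.12), and without any of 5 and 9 libraries in sham brains (0.052 to 0.14). The part of neuron content in the Cd47 result was not tested.

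**Figure D1:**
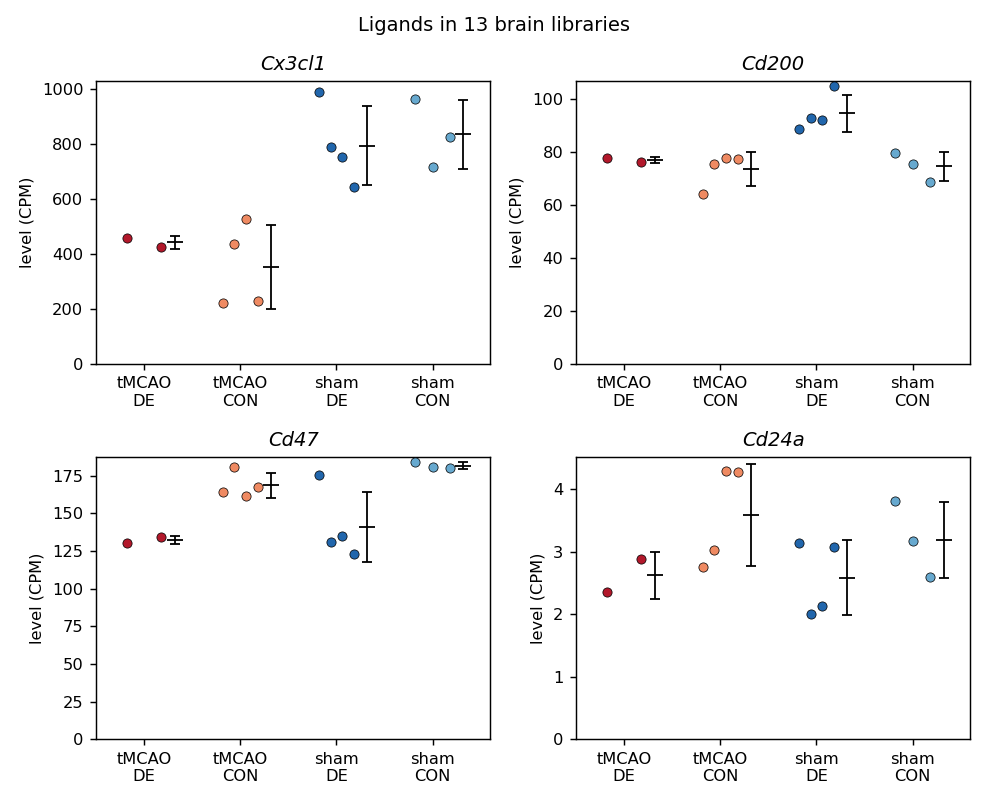
Levels of Cx3cl1, Cd200, Cd47 and Cd24a (vertical axes, CPM from 0) in the libraries of 4 groups (horizontal axis), 1 point per library, with the group mean and SD as a bar at its right. Cx3cl1 is at most 525 CPM in every occluded library, Cd200 is at 88.7 CPM or above in sham DE, and Cd47 is at 123 to 135 CPM in 5 of the 6 depleted libraries.

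Cd24a, the ligand of Siglec-G, was low and did not pass a test in any comparison. It was at 2.36 and 2.89 CPM in tMCAO_MG_DE, against 2.76, 3.02, 4.29 and 4.27 CPM in tMCAO_MG_CON. It was at 3.14, 2.00, 2.13 and 3.08 CPM in sham_MG_DE, against 3.81, 3.17 and 2.60 CPM in sham_MG_CON. All groups overlapped, with means of 2.62 ± 0.372 CPM in tMCAO_MG_DE, 3.59 ± 0.81 CPM in tMCAO_MG_CON, 2.59 ± 0.604 CPM in sham_MG_DE and 3.19 ± 0.606 CPM in sham_MG_CON (SD), and both control groups ranked above both depleted groups. The log2 differences between depleted and control brains were -0.45 ± 0.27 (SE) after occlusion and -0.31 ± 0.24 (SE) after sham surgery, with 95% intervals of -1.03 to 0.13 and -0.82 to 0.20. Its receptor gene Siglecg had 0 to 3 counts per library, 10 in all 13 libraries, and was not tested. In tMCAO_MG_DE it had 0 counts, which allows up to 0.153 and 0.154 CPM in the libraries at a limit of 3 counts.

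Sirpa varied widely between libraries of the same group. Its level was 345 and 242 CPM in tMCAO_MG_DE, against 404, 398, 152 and 216 CPM in tMCAO_MG_CON. It was 482, 391, 168.7 and 367 CPM in sham_MG_DE, against 200, 220 and 471 CPM in sham_MG_CON. Each group held libraries both at 345 CPM or above and at 242 CPM or below, and all groups overlapped. The means were 294 ± 73.2 CPM in tMCAO_MG_DE, 293 ± 128 CPM in tMCAO_MG_CON, 352 ± 132 CPM in sham_MG_DE, the highest, and 297 ± 151 CPM in sham_MG_CON (SD).

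No comparison of Sirpa passed. The log2 difference between depleted and control brains was 0.01 ± 0.46 (SE) after occlusion and 0.25 ± 0.40 (SE) after sham surgery, with 95% intervals of -0.98 to 0.99 and -0.63 to 1.12. These intervals include a change of the size seen for Cd47, which was not detectable at this spread. The within-group SD of Sirpa, 0.650 on the log2 scale, was above that of 99.4% of the 1156 genes within 2-fold of its mean, whose median SD was 0.110. Sirpa rests on 11656 to 26701 summed counts per group, so counting error is small beside this spread.

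Cd200r1, the receptor of CD200, had lower means in depleted brains without passing the test. It stood at 0.854 and 1.32 CPM in tMCAO_MG_DE, against 1.99, 1.25, 1.59 and 1.504 CPM in tMCAO_MG_CON. It stood at 1.14, 0.318, 1.04 and 0.570 CPM in sham_MG_DE, against 1.13, 1.56 and 1.64 CPM in sham_MG_CON. The groups touched in both comparisons, since 1 depleted library reached the lowest control library each time. The means were 1.09 ± 0.327 CPM in tMCAO_MG_DE, 1.58 ± 0.307 CPM in tMCAO_MG_CON, 0.765 ± 0.387 CPM in sham_MG_DE and 1.44 ± 0.275 CPM in sham_MG_CON (SD). Ranked from high to low as tMCAO_MG_CON, sham_MG_CON, tMCAO_MG_DE and sham_MG_DE, neighbours in this order overlapped.

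For sham_MG_DE against sham_MG_CON the log2 fold change of Cd200r1 was -0.93 ± 0.37 (SE) with an edgeR adjusted p of 0.12, and for tMCAO_MG_DE against tMCAO_MG_CON it was -0.54 ± 0.41 (SE) with an edgeR adjusted p of 0.38. Without sham_MG_DE replicate 1 the sham value was -1.20 with an edgeR adjusted p of 0.044. The 10 microglia markers had median log2 fold changes of -3.29 in sham and -3.51 in occluded brains over the same comparisons. The 8 border macrophage markers, whose cells also carry CD200R1, summed to 36.7 to 48.8 CPM in tMCAO_MG_DE and 14.6 to 25.2 CPM in tMCAO_MG_CON, and to 32.4 to 45.0 CPM in sham_MG_DE and 6.76 to 8.85 CPM in sham_MG_CON. Of these 8, 3 rose with depletion in occluded and 7 in sham brains, against 9.36% and 6.85% of all tested genes called higher. None of the 8 was at 0 in any group, and their part in the Cd200r1 level was not tested.

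Cd22 was close to the detection limit. It had 0 and 0.101 CPM in tMCAO_MG_DE, against 0.441, 0.144, 0.882 and 0.243 CPM in tMCAO_MG_CON. It had 0, 0.136, 0.549 and 0.171 CPM in sham_MG_DE, against 0.0536, 0.299 and 0.113 CPM in sham_MG_CON. After occlusion the depleted and control libraries were separate, with 2 counts in tMCAO_MG_DE and 31 in tMCAO_MG_CON, a ratio of 0.122 with an exact 95% counting interval of 0.0142 to 0.481. Of the 31 counts, 15 came from tMCAO_MG_CON replicate 3. Across libraries the difference between the occluded groups did not pass, with an edgeR adjusted p of 0.13. Cd22 was tested for it in 18 of 22 alternative settings and called in 0. In sham brains the ratio was 1.36 (0.542 to 3.71) on 15 and 8 counts. The means were 0.0506 ± 0.0716 CPM in tMCAO_MG_DE, the lowest, 0.428 ± 0.327 CPM in tMCAO_MG_CON, the highest, 0.214 ± 0.235 CPM in sham_MG_DE and 0.155 ± 0.128 CPM in sham_MG_CON (SD).

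Since Cd22 marks B cells as well, the 7 B cell markers listed in all tables are given beside it. Their summed level was 45.2 to 49.5 CPM in tMCAO_MG_DE, 13.4 to 31.6 CPM in tMCAO_MG_CON, 11.2 to 22.1 CPM in sham_MG_DE and 9.997 to 12.02 CPM in sham_MG_CON. This sum was nearly all Blnk, an adaptor of B cell receptor signalling, at 45.9 ± 3.08 CPM in tMCAO_MG_DE, 19.5 ± 8.05 CPM in tMCAO_MG_CON, 13.97 ± 4.80 CPM in sham_MG_DE and 10.1 ± 1.04 CPM in sham_MG_CON (SD). Blnk, the 1 marker with counts enough to be tested, rose with depletion in occluded brains by 1.23 ± 0.30 (SE, log2), a call that ended without either tMCAO_MG_DE library (edgeR adjusted p 0.066 to 0.12). The other 6 markers together were at 1.47 to 1.51 CPM in tMCAO_MG_DE, 0.765 to 1.44 CPM in tMCAO_MG_CON, 1.14 to 1.55 CPM in sham_MG_DE and 1.07 to 1.34 CPM in sham_MG_CON.

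Cx3cr1, the receptor of fractalkine and the gene that carries Cre, was low in most libraries, with 0 to 43 counts in all but 1. It had 0 and 0.0506 CPM in tMCAO_MG_DE, against 1.88, 1.05, 1.06 and 2.09 CPM in tMCAO_MG_CON. It had 1.41, 1.23, 0.305 and 0 CPM in sham_MG_DE, against 1.13, 24.2 and 1.19 CPM in sham_MG_CON. A single library, sham_MG_CON replicate 2, thus held 404 of the 446 counts of its group. In occluded brains the groups were separate, with 1 count in tMCAO_MG_DE and 117 in tMCAO_MG_CON, a ratio of 0.0162 with an exact 95% counting interval of 0.000407 to 0.0922, while the edgeR adjusted p was 0.12, or 0.02 without sham_MG_CON replicate 2. In sham brains the log2 fold change was -3.52 ± 1.005 (SE) with an edgeR adjusted p of 0.04, but without sham_MG_CON replicate 2 it was -0.61 with an edgeR adjusted p of 0.66. The call also ended, at edgeR adjusted p-values of 0.05 to 0.096, without sham_MG_DE replicate 2, 3 or 4, tMCAO_MG_CON replicate 1 or 4, or either tMCAO_MG_DE library. The annotated Cx3cr1 gene overlaps 3 genes on its own strand and 6 on the other, and without knowledge of strand in the counting its counts are uncertain.

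**Figure D2:**
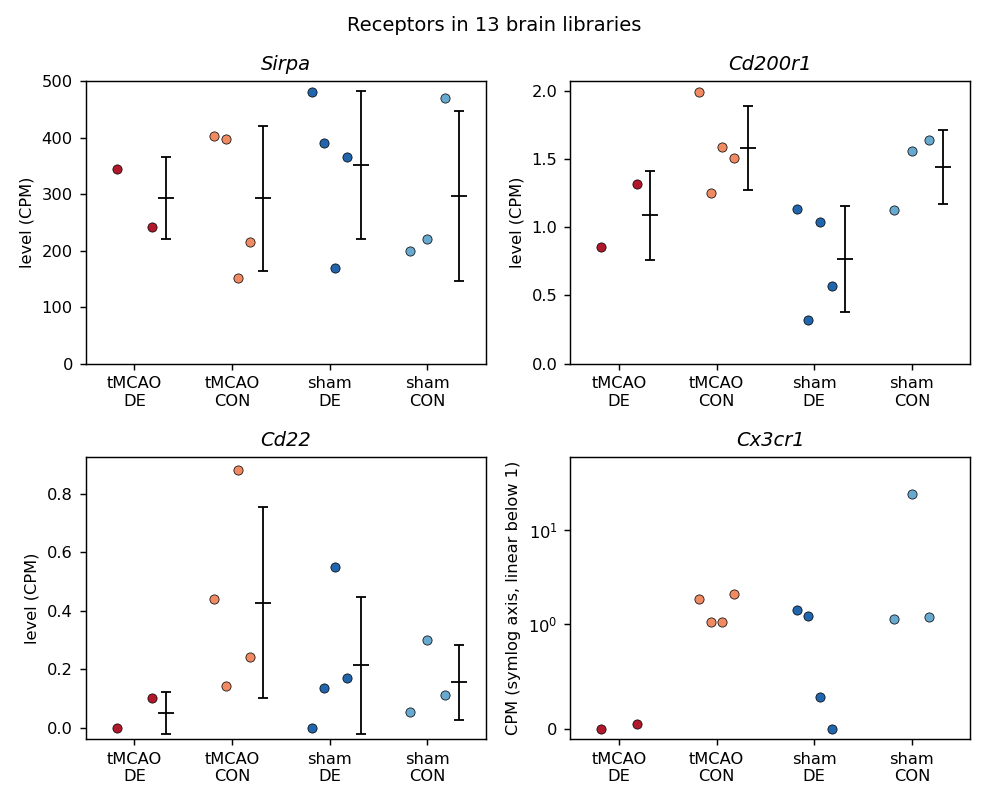
Levels of Sirpa, Cd200r1, Cd22 and Cx3cr1 (vertical axes, CPM) in the libraries of 4 groups (horizontal axis), 1 point per library, with the group mean and SD for the first 3 genes and an axis for Cx3cr1 that is logarithmic above 1 CPM and linear below. Sirpa spreads from 152 to 482 CPM with all groups overlapping, and 1 sham CON library stands at 24.2 CPM for Cx3cr1.

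**Figure D3:**
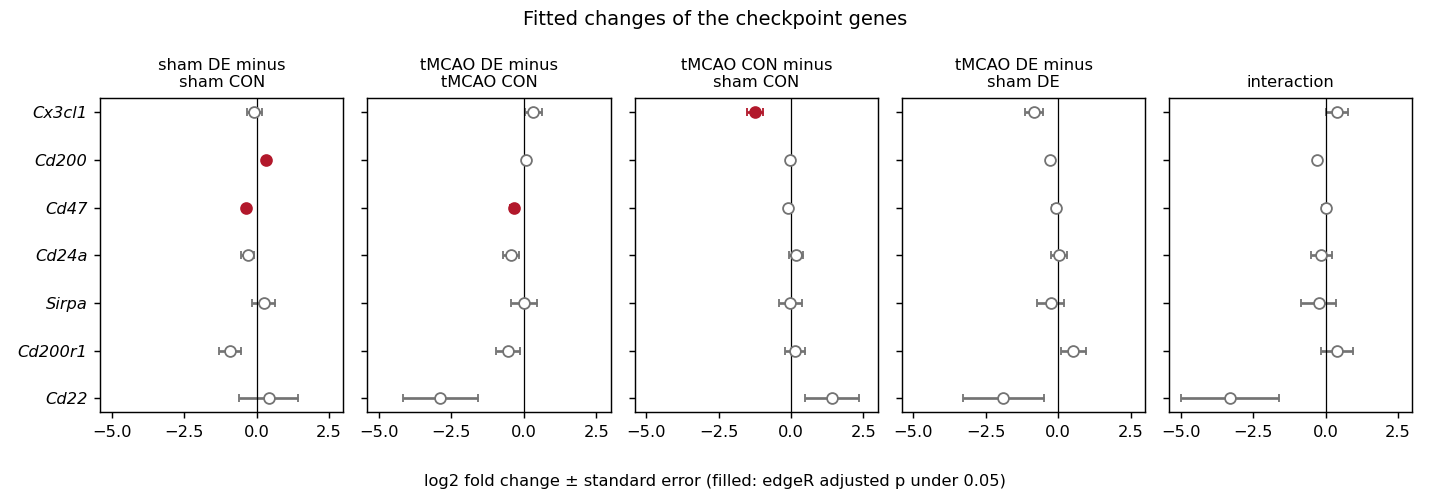
Fitted log2 fold changes (horizontal axis) with standard errors for the 7 genes (rows) in 5 comparisons (panels), filled where the edgeR adjusted p was under 0.05. Filled points are Cd200 and Cd47 for depletion in sham brains, Cd47 for depletion in occluded brains and Cx3cl1 for occlusion with microglia present.

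Each ligand was set over its receptor in FPKM, library by library. Cd200 over Cd200r1 was 33.1 and 21.1 in tMCAO_MG_DE, against 11.7, 22, 17.8 and 18.7 in tMCAO_MG_CON. It was 28.4, 106, 32.3 and 66.8 in sham_MG_DE, against 25.7, 17.6 and 15.3 in sham_MG_CON, so the sham groups were separate and the occluded groups overlapped. On the log2 scale the ratio averaged 4.72 ± 0.461 in tMCAO_MG_DE and 4.10 ± 0.387 in tMCAO_MG_CON, and 5.66 ± 0.897 in sham_MG_DE and 4.25 ± 0.390 in sham_MG_CON (SD). The ratios rest on the low counts of Cd200r1 and were not tested.

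Cd47 and Sirpa were of like abundance per length, with FPKM ratios of 0.593 to 1.88 over the 13 libraries. Cd47 over Sirpa was 0.668 and 0.981 in tMCAO_MG_DE, against 0.721 to 1.88 in tMCAO_MG_CON. It was 0.593 to 1.42 in sham_MG_DE, against 0.678 to 1.63 in sham_MG_CON, and all groups overlapped. The within-group SD on the log2 scale was 0.137 for Cd47 and 0.650 for Sirpa. Cx3cl1 exceeded Cx3cr1 by 45.3 to 1310 times in FPKM in the 7 control libraries, with the lowest ratio in sham_MG_CON replicate 2. The ratio was 1080, 984 and 3790 in sham_MG_DE replicates 1, 2 and 3, so replicates 1 and 2 lay within the control range. It was 12900 in tMCAO_MG_DE replicate 2, on 1 count of Cx3cr1, and 2 depleted libraries had no Cx3cr1 count.

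**Figure D4:**
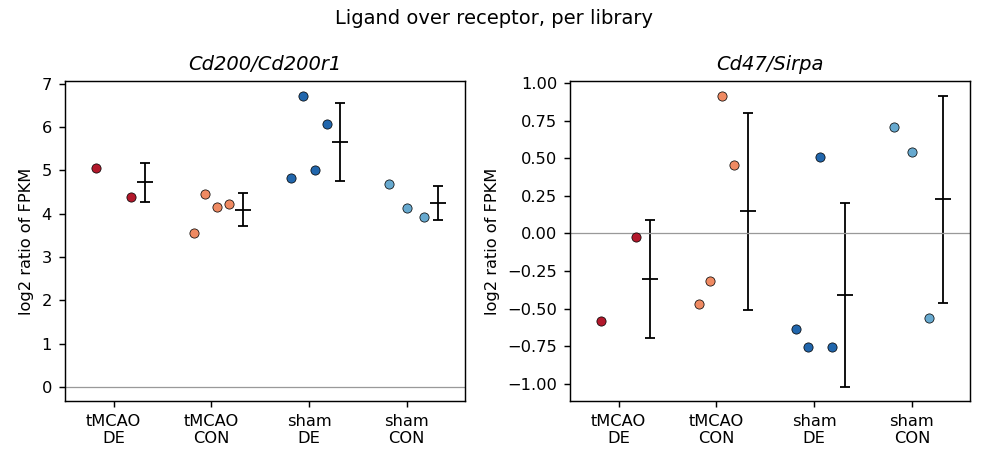
Log2 ratio of ligand over receptor FPKM per library (vertical axis) for Cd200 over Cd200r1 and Cd47 over Sirpa in 4 groups (horizontal axis), with the group mean and SD. The sham DE libraries lie above the sham CON libraries for Cd200 over Cd200r1, and all groups overlap around a log2 ratio of 0 for Cd47 over Sirpa.

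The genes whose log2 CPM ran most alike over the 13 libraries, among 12401 genes with a mean of at least 1 FPKM, were sought for the 5 members above that level. They were Gm27000, Pde4a and Gprc5b for Cx3cl1 (Pearson r of 0.911 to 0.888), Letm2, Cep89 and Fbxw4 for Cd200 (0.921 to 0.895) and Cd99l2, Parp6 and Myadm for Cd47 (0.971 to 0.960). For Cd24a they were Btd, Ehd1 and Mknk1 (0.888 to 0.856), and for Sirpa they were Ebag9, Ighmbp2 and Mre11a (0.840 to 0.708), so the nearest genes followed Sirpa less closely. These values describe libraries that share their groups, and carry no test.

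Around the 7 genes, lists of other genes of the pathways were counted. Of Cx3cr1 and the 3 proteases that release fractalkine, 3 fell with depletion in occluded brains, namely the microglial cathepsin S gene Ctss and the sheddase genes Adam10 and Adam17, where 9.26% of all tested genes were called lower. Ctss was at 8.23 ± 1.90 CPM in tMCAO_MG_DE and 81.0 ± 9.59 CPM in tMCAO_MG_CON (SD). Adam10 was at 43.6 ± 1.57 CPM in tMCAO_MG_DE and 87.3 ± 5.02 CPM in tMCAO_MG_CON. Adam17 was at 14.9 ± 0.264 CPM in tMCAO_MG_DE and 22.4 ± 1.41 CPM in tMCAO_MG_CON. In sham brains, with 4.49% of all tested genes called lower, 2 of the 4 fell, Cx3cr1 with the limit given above and Ctss, which was at 6.62 ± 5.14 CPM in sham_MG_DE and 68.4 ± 10.4 CPM in sham_MG_CON. With occlusion, Adam17 rose in control brains and Adam10 fell in depleted brains, each the only 1 of the 4 genes called, against 8.44% and 12.4% of all tested genes. The Adam17 rise ended without sham_MG_CON replicate 1 or 3 or tMCAO_MG_CON replicate 2 or 3 (edgeR adjusted p 0.052 to 0.099), and the Adam10 fall with occlusion ended when any 1 of the 6 depleted libraries or tMCAO_MG_CON replicate 4 was left out (0.05 to 0.22).

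Of the 13 paired and sialic acid receptors, 8 were in all tables and 6 were tested. With depletion 1 rose and 2 fell in occluded brains, and 1 rose and 3 fell in sham brains, beside the shares of all tested genes given above. The macrophage gene Siglec1 rose with depletion under both surgeries, to 6.10 ± 1.03 CPM in tMCAO_MG_DE, against 1.72 ± 0.827 CPM in tMCAO_MG_CON, and to 4.004 ± 0.913 CPM in sham_MG_DE, against 0.388 ± 0.339 CPM in sham_MG_CON (SD). Siglech, a microglial receptor, fell to 0.403 ± 0.00233 CPM in tMCAO_MG_DE, against 3.56 ± 1.15 CPM in tMCAO_MG_CON, and to 0.464 ± 0.408 CPM in sham_MG_DE, against 4.51 ± 0.558 CPM in sham_MG_CON. Siglece, an inhibitory receptor of myeloid cells, fell in both comparisons too, and Cd33 fell in sham brains. All 4 of these were under 1 FPKM on average, with 9 to 91 summed counts per group for Siglece, 16 to 275 for Siglech, 20 to 304 for Siglec1 and 121 to 553 for Cd33. After occlusion with microglia present Siglec1 rose and Cd33 fell, where 8.44% of all tested genes were called. In depleted brains 0 of the 6 were called by edgeR, against 12.4% of all tested genes. Without tMCAO_MG_DE replicate 2 the calls of Siglec1, Siglech and Siglece in occluded brains ended (edgeR adjusted p 0.069 to 0.15), Siglece also without tMCAO_MG_DE replicate 1 (0.056 to 0.15), and the Siglec1 rise with occlusion ended without sham_MG_CON replicate 1 or 3 or tMCAO_MG_CON replicate 3 (0.055 to 0.1).

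Of 10 signalling genes downstream of the receptors, 6 fell and 1 rose with depletion in occluded brains, where 9.26% of all tested genes were called lower and 9.36% higher. In sham brains 4 of the 10 fell, against 4.49% of all tested genes called lower. These counts stand beside median log2 fold changes of -0.82 and -0.395 for the list and -0.0117 and -0.00351 for all tested genes in occluded and sham brains. The 10 microglia markers had medians of -3.51 and -3.29 over the same comparisons, and the part of microglia loss in these counts was not tested. Dok1, Dok2 and Rasa1 did not pass in either comparison. Ptpn6, which encodes SHP-1, was at 3.20 ± 0.160 CPM in tMCAO_MG_DE and 9.38 ± 2.13 CPM in tMCAO_MG_CON, and at 2.20 ± 0.261 CPM in sham_MG_DE and 4.05 ± 0.668 CPM in sham_MG_CON (SD). Lyn, a kinase that phosphorylates the inhibitory tails, was at 3.88 ± 0.522 CPM in tMCAO_MG_DE and 13.1 ± 2.09 CPM in tMCAO_MG_CON. Inpp5d, which encodes the phosphatase SHIP-1, was at 7.29 ± 0.493 CPM in tMCAO_MG_DE and 18.8 ± 1.47 CPM in tMCAO_MG_CON. Tyrobp, the adaptor of activating receptors, was at 2.83 ± 0.516 CPM in tMCAO_MG_DE and 11.99 ± 1.05 CPM in tMCAO_MG_CON. Ptpn11, which encodes SHP-2 and is expressed in most cells, was the 1 that rose, by 0.28 ± 0.08 (SE, log2). With occlusion 4 of the 10 rose in control brains (Ptpn6, Lyn, Skap2 and Tyrobp), against 5.14% of all tested genes called higher. In depleted brains 0 were called with occlusion, against 12.4% of all tested genes. The interaction was called by edgeR for 0 of the 10, against 0.0472% of all tested genes. The Ptpn6 fall in sham brains ended without sham_MG_CON replicate 1 or 3 or sham_MG_DE replicate 2 or 4 (edgeR adjusted p 0.05 to 0.085), the Csk fall in occluded brains without tMCAO_MG_CON replicate 1 or 3 or tMCAO_MG_DE replicate 2 (log2 fold change -0.44 to -0.30, 0.062 to 0.32), the Ptpn11 rise without tMCAO_MG_CON replicate 3 or 4 or either tMCAO_MG_DE library (0.068 to 0.21) and the Tyrobp rise without sham_MG_CON replicate 2 or 3 (0.057 to 0.077).

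Of 7 other ligand genes, 3 rose with occlusion in control brains, where 5.14% of all tested genes were called higher. Thbs1, which encodes the CD47 ligand thrombospondin-1, was at 8.99 ± 9.89 CPM in tMCAO_MG_CON, with libraries from 2.98 to 23.8, and at 0.649 ± 0.235 CPM in sham_MG_CON (SD). Cd52 was at 3.76 ± 0.994 CPM in tMCAO_MG_CON and 1.14 ± 0.407 CPM in sham_MG_CON, and Cd274, which encodes PD-L1, rose by 1.25 ± 0.35 (SE, log2). Cd274 and Tgfb1 rose with occlusion in depleted brains, against 6.59% of all tested genes called higher. With depletion Cd52, Il34 and Tgfb1 fell in occluded brains, against 9.26% of all tested genes called lower, and Tgfb1 fell in sham brains, against 4.49%. Il34, a neuronal ligand of CSF1R, was at 23.9 ± 0.896 CPM in tMCAO_MG_DE and 40.4 ± 8.40 CPM in tMCAO_MG_CON. Calls that ended when single libraries were left out were those of Tgfb1 in all 3 comparisons, with 6 to 11 such libraries (edgeR adjusted p 0.052 to 0.22), Cd274 with 8 such libraries in control brains (0.052 to 0.16) and tMCAO_MG_DE replicate 2 in depleted brains (0.19), Cd52 with 5 such libraries in occluded brains (0.053 to 0.2) and Il34 with either tMCAO_MG_DE library (0.093 to 0.15).

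A list of 11 genes of sialic acid metabolism included the sialidase gene Neu1. Of these 11 and of 10 genes promoting phagocytosis, 1 of each list was called for depletion in occluded and 2 of each in sham brains. These counts stand beside 18.6% and 11.3% of all tested genes called in these comparisons. In the first list, the sialyltransferase gene St6gal2 fell with depletion under both surgeries, by 0.59 ± 0.11 (SE, log2) in occluded and 0.32 ± 0.10 in sham brains, and with occlusion in depleted brains. Gne, which makes the sialic acid precursor, rose with depletion in sham brains by 0.51 ± 0.12 (SE, log2). In the second list, the lipid exporter gene Abca1 rose with depletion in both comparisons, by 0.44 ± 0.14 (SE, log2) in occluded and 0.44 ± 0.13 in sham brains. Calr, which encodes the surface signal calreticulin that CD47 opposes, fell in sham brains, at 205 ± 31.1 CPM in sham_MG_DE and 289 ± 38.9 CPM in sham_MG_CON (SD). Pros1, a bridging ligand between dying cells and phagocytes, rose with occlusion by 1.17 ± 0.19 (SE, log2) in depleted and 1.16 ± 0.17 in control brains. Several of these calls ended when a single library was left out, with 11 such libraries for the sham and 7 for the occluded call of Abca1 (edgeR adjusted p 0.054 to 0.35), 10 for the sham call of St6gal2 (0.052 to 0.17), 5 for Calr (0.052 to 0.099) and 4 for Gne (0.052 to 0.085). Leaving out tMCAO_MG_DE replicate 2 ended the St6gal2 calls in occluded brains and with occlusion, and the Pros1 call in depleted brains (edgeR adjusted p 0.052 to 0.17), and leaving out tMCAO_MG_DE replicate 1 also ended the St6gal2 call with occlusion.

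**Figure D5:**
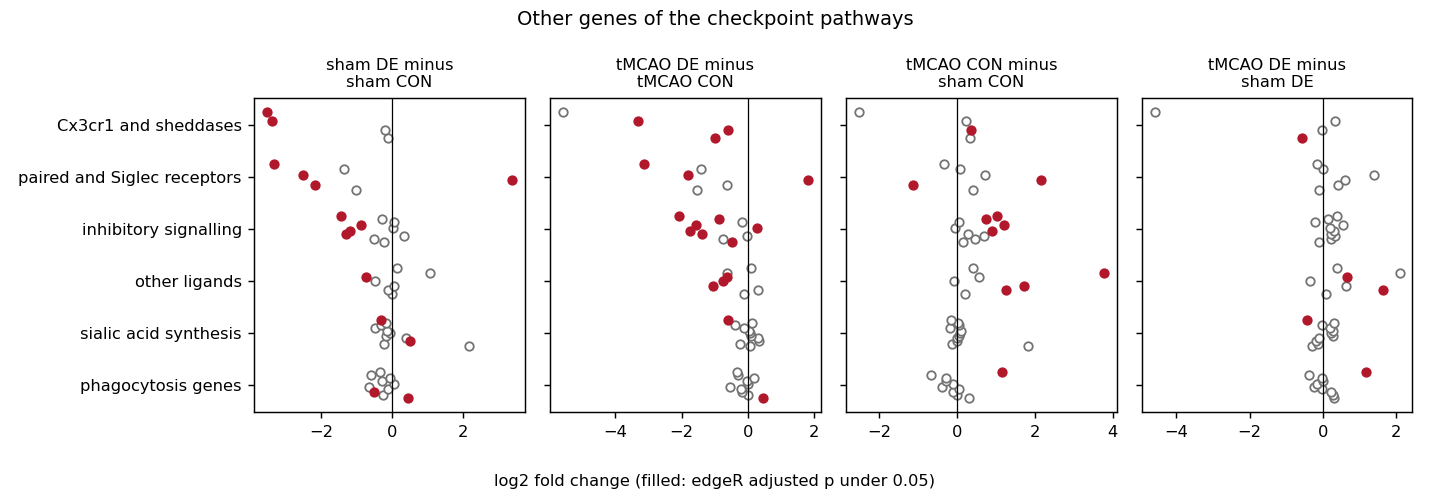
Log2 fold changes (horizontal axis) of the tested genes of 6 pathway lists (rows) in 4 comparisons (panels), 1 point per gene, filled where the edgeR adjusted p was under 0.05. Filled points of the inhibitory signalling row lie left of 0 for depletion, except Ptpn11 in occluded brains, and right of 0 for occlusion in control brains. That row also holds Tyrobp, the adaptor of activating receptors, and the sialic acid synthesis row also holds the sialidase gene Neu1.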

How the data were processed

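RNA from 13 mouse brain libraries was measured in 4 groups. The protocols in the labels name a column kit for total RNA and a TruSeq kit for paired-end libraries. For each group the authors deposited a table of whole-number counts and FPKM values by gene, and its column of mean FPKM was not used. Build mm10 and the tools Cufflinks 2.1.1 and Cuffdiff are named in the submitters' processing notes. No aligner or counting tool, and no use of strand, is given in the sources used here. The deposited FPKM values divide counts by library total and by a gene length. That length differed by over 1% between libraries for 22 of 13829 genes compared, 0 of them a member or list gene. FPKM values were therefore compared across tables. Cd200r1, Cd22, Cx3cr1 and Siglecg had too few counts to be among the genes compared, so their lengths were not checked.

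Counts were scaled by TMM and filtered with filterByExpr, which kept 16940 genes and removed 4116. Genes listed only in the sham tables (1002) or only in the occluded tables (1052) were not tested. The 4 group means were fitted in 1 model with edgeR 4.0.16 in R 4.3.3 by the quasi-likelihood test, two-sided, with Benjamini-Hochberg adjustment over all tested genes and a threshold of 0.05. Standard errors are the absolute log2 fold change over the square root of F, an approximation, and 95% intervals of a difference use them with the fit's degrees of freedom. The common coefficient of variation was 15.2%. The fit was tested on simulated data with 200 of 16940 genes changed, where it recovered 94% of 2-fold changes for depletion in sham brains, 86% for depletion in occluded brains, 99% for occlusion in control brains and 100% of 4-fold changes in each. Every simulated gene had the common coefficient of variation, and only genes with a mean above 1 CPM were changed. The rates therefore do not hold for genes that varied more within groups, such as Cx3cl1 and Sirpa, or for Cd22, below that level. Alternatives used DESeq2 1.42.0, limma 3.58.1 on log2(FPKM + 0.1) and log2(FPKM + 1), other scalings, no filter, the replicate number as a block and each library left out. Counting intervals are exact Poisson intervals. Count ratios, their intervals and floors of 3 counts use library totals without TMM, and the intervals and floors cover counting error only.

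The genes and lists were chosen with earlier results of these data known. Named besides the 7 genes were their receptors, up to 4 called genes per list and comparison by size of change, and the 3 most alike genes. The rule asked for a mean of at least 1 FPKM for list genes. Siglec1, Siglech, Siglece, Cd33, Thbs1, Skap2 and, narrowly, Inpp5d, below it, and Ptpn11, Csk, Dok1, Dok2, Rasa1 and the marker genes, outside it, were named after their values were seen. Libraries agreed at r = 0.976 to 0.987 within groups across genes, and none were duplicates (lowest chi-square 11.1 per gene). Genotype labels that differ in the number of the Rosa locus were read as 1 genotype, an assumption.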

Additional observations from a re-analysis of the deposited data

Results flagged for a closer look

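In tMCAO_MG_CON, Cd200 was at 64.0 CPM in replicate 1, apart from 75.4 to 77.5 CPM in the other 3 libraries. In sham_MG_DE, Siglecg was at 0.0909 CPM in replicate 2 and at 0 in the other 3 libraries, which is 2 counts. These stood out by the gap of 1 library to the rest of its group, in 18 groups of 4 libraries examined. For continuous values chance gives about 1 such case in 20 groups. That rate does not hold for genes at mostly 0 counts, such as Siglecg.

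Cd200r2 and Sirpb1c, paired receptors of the CD200R1 and SIRPα families, were listed for the occluded groups only and were not tested. Cd200r2 had 2 summed counts in tMCAO_MG_DE and 14 in tMCAO_MG_CON, with at most 5 in a library. Sirpb1c had 3 summed counts in tMCAO_MG_DE and 6 in tMCAO_MG_CON, all 6 in 1 library. Both stood above the limit of 3 counts in data outside the comparisons.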

How the results depend on the processing

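Over 22 alternative settings, 1832 of 2084 single-gene values kept their side of the threshold and, where called, their direction, 244 lost the call, 8 gained it and 0 reversed. Of 48 list calls, 22 held in every setting run and 25 ended when 1 library was left out. The number of the 7 genes called for depletion in sham brains was 2, but 0 with only the 2 groups compared, 0 with the replicate block, 0 without sham_MG_CON 2 and sham_MG_DE 3 together, and 0 to 3 with each library left out, the highest without sham_MG_DE replicate 1. For depletion in occluded brains it was 1, but 0 without the filter on low counts, 0 without those 2 libraries together, and 0 to 1 with each library left out. For occlusion in control brains it was 1, and 0 to 1 with each library left out. For occlusion in depleted brains it was 0, but 1 with DESeq2 (Cd200), 1 with only the 2 groups compared (Cx3cl1), and 0 to 1 with each library left out. The interaction stayed at 0 in every setting run. The cause of these changes was not tested. Same-numbered libraries did not clearly deviate together (r of -0.0641 to 0.106 over 16 pairs, against -0.138 to 0.136 over 46 pairs of other numbers). In tMCAO_MG_DE, with 2 libraries, the deviations are mirror images. The check therefore cannot decide whether same-numbered libraries share a batch, and the main fit used no pairing.

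Over the settings the edgeR, DESeq2 or limma adjusted p was 0.0035 to 0.1 for Cd200 in sham brains, 0.00032 to 0.14 and 0.0034 to 0.2 for Cd47 in sham and occluded brains, and 0.0012 to 0.054 for Cx3cl1 with occlusion in control brains, where 21 of 22 settings called it. Over all genes, depletion in sham brains gave 1921 calls, but 645 with only the 2 groups compared, 823 with the replicate block, 219 without those 2 libraries together and 591 to 3725 with each library left out. Depletion in occluded brains gave 3155, and 346 to 3873 with each library left out, the lowest resting on 1 tMCAO_MG_DE library assumed to vary like the other groups. Occlusion in control brains gave 1430 calls, and 564 to 1814 with each library left out. In depleted brains it gave 2106, but 1137 with only the 2 groups compared, 1341 with the replicate block and 453 to 2096 with each library left out. The interaction gave 8, but 114 with DESeq2, 23 and 32 with limma, 2 with the replicate block and 1 to 15 with each library left out. Scaling by library totals alone moved the median log2 change of all genes with occlusion in control brains to 0.11, against 0.02, and gave 1463 higher and 274 lower calls, against 870 and 560. Limma on log2(FPKM + 0.1) gave splits of 1522 and 263 there, and 1242 and 1846 for depletion in occluded brains, against 1586 and 1569. For occlusion in depleted brains it gave 1350 and 791, against 1116 and 990. In the same order, limma on log2(FPKM + 1) gave 1471 and 265, 1292 and 1815, and 1388 and 723. Depth limits Cd22, Siglecg, Cx3cr1 and Cd200r1, which rest on few counts.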
